A study of Homo sapiens with 18 samples.

Results

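Cells of the human line MDA-MB-231, which derives from a triple-negative breast cancer and is mesenchymal in character, were compared without treatment as wild type (labelled TRIM27-WT, 3 libraries) and with TRIM27 knocked out (labelled TRIM27-KO, 3 libraries). The comparison took in every gene that reached 1 FPKM, the number of fragments scaled to transcript length and library size, in at least 3 of these 6 libraries, which left 14341 of the 62830 genes listed. The labels give no treatment for the 6 libraries, and do not say whether they received the vehicle or control siRNA that the protocols mention, how the knockout was made or whether it is a single clone. The other 12 libraries of the series, 3 per group, hold both genotypes after olaparib, an inhibitor of PARP1 and PARP2 (2 µM, 24 h), and after siRNA against PARP1 (siPARP1, labelled 100 pM, 48 h). They served here to estimate the spread between libraries and to set the untreated difference beside that in treated cells.

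TRIM27 is a tripartite motif protein, a ubiquitin ligase built around a RING finger, a B-box and a coiled coil. It attaches ubiquitin to subunits of the WASH complex on endosomes, where it works with MAGE proteins and the deubiquitinase USP7, and it has been described as a repressor of transcription and a regulator of innate immune signalling through NF-kB and interferon. NF-kB is a family of transcription factors held in the cytoplasm by inhibitor proteins. Once released by cytokine or damage signals it switches on chemokines, cytokines and its own inhibitors, and in MDA-MB-231 cells this programme runs at a high level without any stimulus.

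The libraries were alike in what they contained. Relative depth, estimated from the steps between low values, was 0.76 to 1.04 of wild-type library 1. FPKM is scaled to library size, so its sum does not measure depth. Summed FPKM ran from 822410 to 868331, between 14183 and 14257 genes reached 1 FPKM, and unnamed loci held 47.8 to 49.8% of the total. Log values correlated across genes at 0.983 to 0.986 within a genotype and at 0.973 to 0.975 between genotypes. Markers of the line were present, with VIM at 2432 to 2710 FPKM in wild type, while CDH1 (E-cadherin) stayed at or below 0.0114 FPKM there. CDH1 was 1 of 7 genes listed as low or absent in the line, and 2 of the 7 did reach 1 FPKM. These were ERBB3, at 10.2 to 12.9 FPKM in wild type, and GATA3, at 14.2 to 14.7 FPKM. Of 9 endothelial and 14 leukocyte markers, only CD68 reached 1 FPKM in 3 libraries, so neither of these cell types was detected by these lists. Of 12 neural markers 5 reached it, TUBB3 the highest at 54.0 to 56.7 FPKM in wild type. In bulk RNA, fewer cells expressing a gene and less RNA per cell cannot be told apart.

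TRIM27 itself (ENSG00000204713, GRCh38 chromosome 6, 28903002 to 28923989) measured 1.18, 1.51 and 1.65 FPKM in wild type and 0.665, 0.547 and 0.658 FPKM in the knockout libraries. All 3 knockout libraries lay below all 3 wild-type libraries, yet none was at 0 (log2 difference -0.59, SE 0.09, limma adjusted p = 0.00044). Most of the wild-type signal came from the protein-coding transcript TRIM27-203, at 0.771, 0.867 and 0.833 FPKM. In the knockout libraries that transcript was listed at 0.25, 0 and 0.28 FPKM. A noncoding transcript of the locus, TRIM27-207, lay at 0.106, 0.35 and 0.504 FPKM in wild type and at 0.23, 0.2 and 0.275 FPKM in knockout, and overlapped between genotypes. Neither value shows whether protein was made. PARP1 was at 59.1, 54.5 and 54.9 FPKM in wild type and 58.9, 51.5 and 55.2 FPKM in knockout, which overlap (log2 difference -0.03, SE 0.07, limma adjusted p = 0.844). PAX6, which the series' design also concerns, was below the filter, at 0.4, 0.501 and 0.331 FPKM in wild type and 0.967, 1.18 and 0.934 FPKM in knockout. A fit without the filter gave a log2 difference of 0.52 (SE 0.12, limma adjusted p = 0.0142), at levels near the floor. In that fit PAX6 differed by 0.05 under olaparib (limma adjusted p = 0.97) and 0.08 under siPARP1 (limma adjusted p = 0.873).

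Across the transcriptome 1501 genes (10.5% of those tested) were higher in knockout cells and 1679 (11.7%) lower, at a limma adjusted p under 0.05. Rescaled so that each library had the same total over Ensembl genes (TPM), the balance turned, with 1718 higher and 1380 lower. Most of these differences were small: 2638 of the 3180 were under 1.5-fold, 51 genes (0.356%) were higher and 98 (0.683%) lower by at least 2-fold. The largest falls included near-complete losses. LNCAROD, a long noncoding RNA, measured 33.7, 33.4 and 32.4 FPKM in wild type and 0.35, 0.092 and 0.144 FPKM in knockout, and UCHL1, a neuronal ubiquitin hydrolase, 30.8, 30.5 and 32.9 FPKM and 0.060, 0.177 and 0.191 FPKM. Both were also lower in knockout cells under olaparib and siPARP1, at 0.488 ± 0.163 FPKM under siPARP1 for LNCAROD, while UCHL1 was listed at 0 in all 3 siPARP1 libraries. SNRPN, an imprinted gene for a splicing protein, was at 5.67, 4.17 and 5.62 FPKM in wild type and listed at 0, 0.0742 and 0 FPKM in knockout. MCAM, a cell surface adhesion molecule of melanoma and vessels, fell from 3.66 ± 0.084 to 0.349 ± 0.071 FPKM (log2 difference -1.79, SE 0.08, limma adjusted p = 9.83e-10). The membrane protein gene EMP1 had uneven wild-type libraries, at 142, 44.1 and 142 FPKM, and 22, 22.6 and 22.2 FPKM in knockout.

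**Figure D1:**
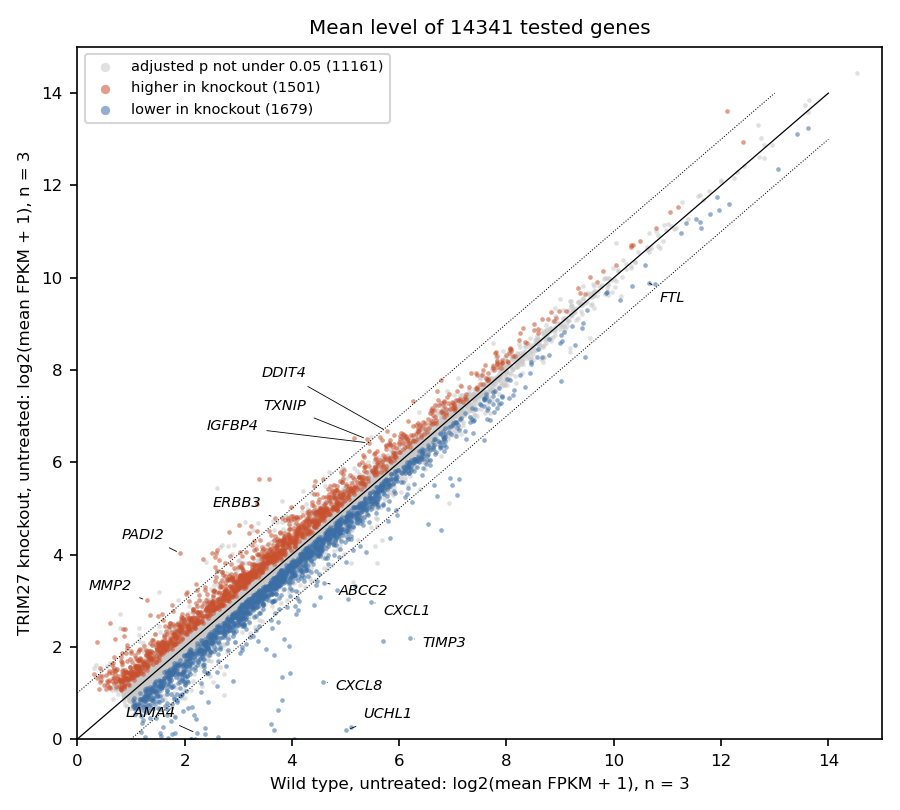
Mean level of each of the 14341 tested genes in untreated wild-type (x) and TRIM27 knockout (y) cells, as log2(mean FPKM + 1) over 3 libraries each; orange points are higher and blue points lower in knockout at a limma adjusted p under 0.05, and dotted lines mark a 2-fold difference on this scale. Most genes hug the diagonal, and the genes far below it (TIMP3, UCHL1, CXCL8) lie farther away than any above it.

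Among the rises, the largest were of enzymes, signalling proteins and transcription factors. PADI2, which converts arginine to citrulline, measured 3.33, 2.98 and 2.05 FPKM in wild type and 14.2, 15.5 and 16.1 FPKM in knockout (log2 difference 2.12, SE 0.12, limma adjusted p = 2.09e-08). EPB41L4B, a membrane-cytoskeleton linker, rose from 4.96 ± 0.243 to 14.3 ± 0.649 FPKM, RDH10, which oxidises retinol to retinal, from 5.28 ± 0.655 to 13.7 ± 0.20, and MGARP, a mitochondrial protein, from 4.1 ± 0.245 to 13.9 ± 0.739. No overlap between the groups was part of the rule that named these genes, and 38.2% of all tested genes had none. Further genes among the 20 largest rises were ELF3, an epithelial transcription factor (1.15), the GDNF coreceptor GFRA1 (1.13) and the G-protein regulator RGS5 (1.15). So were the secreted OLFML3 (1.12) and the palmitoyltransferase ZDHHC3 (1.16), all as log2 differences with an adjusted p under 0.05. MMP2 (1.71), CHAC1 (1.58), ANKRD37 (1.45), MMP24 (1.38), IGF2 (1.15) and ERBB3 (1.12), described below, also belonged to these 20. ENSG00000266865 also ranked there, on wild-type libraries that spread from 1.41 to 11.1 FPKM (log2 difference 1.85, SE 0.59, limma adjusted p = 0.0371), and it no longer passed with any of 5 of the 6 libraries left out (log2 1.36 to 1.92, the sixth being wild-type library 1). BCRP2, a pseudogene of BCR, and ENSG00000234147, a locus with no symbol, rose by 1.15 and 1.34. Their transcript sums gave 0.28 and 0.20, and the second then missed the threshold (adjusted p = 0.115).

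The list with the lowest median was that of neutrophil chemokines and inflammatory cytokines, 11 of whose 15 tested members were lower, 1 was higher and 3 did not pass (11.7% and 10.5% of all tested genes were lower and higher). The median log2 difference was -1.29, against -0.01 over all tested genes. These shares and this median over all tested genes are the background for every untreated list below. Another 9 genes on the list did not reach the filter. The members of the CXC chemokine cluster on chromosome 4 attract neutrophils through CXCR2, and their promoters hold a site that NF-kB is known to bind. The 250 bases before each start, from the RefSeq promoter table (GRCh38.p14), are shown for the 5 members that carry the letters GGAATTTCC. They were chosen for these letters. The other list members with a promoter there, IL1A, IL1B, IL6, IL24 and TSLP, lack the letters and were lower as well. The letters, in capitals, were searched on both strands and lay 78, 77, 78, 89 and 91 bases before the start of CXCL1, CXCL2, CXCL3, CXCL6 and CXCL8.
CXCL1: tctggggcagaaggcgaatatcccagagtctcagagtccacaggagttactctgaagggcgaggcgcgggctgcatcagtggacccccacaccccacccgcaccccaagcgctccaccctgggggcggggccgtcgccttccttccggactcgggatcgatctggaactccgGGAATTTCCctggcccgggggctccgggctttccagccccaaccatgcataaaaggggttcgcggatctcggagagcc
CXCL2: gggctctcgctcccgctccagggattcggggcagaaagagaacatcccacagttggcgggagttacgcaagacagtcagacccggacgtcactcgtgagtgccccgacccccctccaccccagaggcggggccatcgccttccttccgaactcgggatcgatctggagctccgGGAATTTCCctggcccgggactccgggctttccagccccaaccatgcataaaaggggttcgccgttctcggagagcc
CXCL3: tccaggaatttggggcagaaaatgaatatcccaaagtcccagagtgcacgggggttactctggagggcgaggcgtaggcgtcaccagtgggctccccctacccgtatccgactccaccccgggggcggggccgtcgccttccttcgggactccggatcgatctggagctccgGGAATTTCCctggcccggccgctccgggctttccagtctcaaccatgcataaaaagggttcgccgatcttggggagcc
CXCL6: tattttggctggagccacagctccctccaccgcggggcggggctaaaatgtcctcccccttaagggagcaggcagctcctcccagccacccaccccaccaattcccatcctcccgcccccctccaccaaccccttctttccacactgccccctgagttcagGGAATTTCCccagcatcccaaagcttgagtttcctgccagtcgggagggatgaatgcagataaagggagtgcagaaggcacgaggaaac
CXCL8: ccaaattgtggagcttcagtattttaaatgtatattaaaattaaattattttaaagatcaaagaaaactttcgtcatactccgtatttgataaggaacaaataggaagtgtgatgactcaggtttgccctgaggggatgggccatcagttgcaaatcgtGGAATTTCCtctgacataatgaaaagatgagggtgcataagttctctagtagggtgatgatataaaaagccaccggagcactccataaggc

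CXCL1, CXCL2 and CXCL3 are close copies: their promoters share runs of up to 42 identical bases, whereas CXCL8 shares no more than 9 with any of them. As close paralogues they may share reads, and how the authors split such reads was not tested. CXCL8 also holds TGANTCA, the letters of an AP-1 site. The coordinates of the windows on GRCh38.p14 chromosome 4 are chr4:73869143-73869392 (plus strand), chr4:74099196-74099445 (minus), chr4:74038690-74038939 (minus), chr4:73836428-73836677 (plus) and chr4:73740319-73740568 (plus). Letters GGAATTTCC, or their reverse complement, were in 5 of the 10 list members with a promoter in the table. Over all tested genes with a promoter they were in 41 of 9623 (0.43%), in 17 of 1225 lower genes (1.39%) and in 2 of 1045 higher genes (0.19%). Of the 56 such genes lower by at least 2-fold, 6 held them (10.71%), and none of the 28 higher by at least 2-fold did. These letters were chosen from what is known of CXC chemokine promoters. The counts over the list and over the lower genes are therefore not independent of that choice. A match shows a sequence and not a bound factor. Of the 6 genes lower by at least 2-fold, 5 were the chemokines shown, among them the close copies CXCL1, CXCL2 and CXCL3. The sixth gene was ICAM1, an adhesion molecule for leukocytes, with the reverse complement 186 bases before its start at GRCh38.p14 chr19:10270870-10271119.
ICAM1: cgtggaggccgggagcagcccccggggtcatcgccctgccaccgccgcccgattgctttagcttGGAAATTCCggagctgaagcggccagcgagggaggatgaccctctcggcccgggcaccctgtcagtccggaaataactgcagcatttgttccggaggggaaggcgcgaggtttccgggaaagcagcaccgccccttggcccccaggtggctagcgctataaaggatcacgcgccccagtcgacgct

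CXCL8, whose product is interleukin 8, measured 23.1, 22.9 and 23 FPKM in wild type and 1.17, 1.25 and 1.64 FPKM in the knockout libraries (log2 difference -3.35, SE 0.07, limma adjusted p = 1.7e-13). CXCL1 was at 44.6, 43.6 and 41.8 FPKM in wild type and at 6.86, 6.66 and 6.99 FPKM in knockout (log2 difference -2.50, SE 0.04, limma adjusted p = 1.8e-14). In both genes every knockout library lay far under every wild-type library. No overlap was a condition of the rule that named genes, and 38.2% of all tested genes met it. CXCL2 went from 14.5 ± 0.822 to 3.06 ± 0.394 FPKM (SD, n = 3), CXCL3 from 3.92 ± 0.308 to 1.02 ± 0.22 and CXCL6 from 2.41 ± 0.134 to 0.685 ± 0.296. CCL2, which attracts monocytes, was low in wild type at 3.12, 1.61 and 2.45 FPKM and near 0 in knockout at 0.126, 0.046 and 0.056 FPKM (log2 difference -1.63, SE 0.14, limma adjusted p = 1.57e-06). Levels this low rest on few reads, and CCL2, CXCL3, CXCL6, IL24 and TSLP are named below the 5 FPKM set for named genes because they complete the list.

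The interleukins fell as well. IL1A, the alarmin of stressed cells, measured 32.2, 31.4 and 32 FPKM in wild type and 7.13, 7.41 and 7.11 FPKM in knockout (log2 difference -2.0, SE 0.05, limma adjusted p = 4.77e-12), and its neighbour IL1B 11.1, 11.8 and 12.4 FPKM and 2.23, 2.5 and 2.89 FPKM (log2 difference -1.85, SE 0.08, limma adjusted p = 5.9e-10). IL6, the cytokine that signals through gp130, was at 14.9, 16.5 and 16.1 FPKM and 5.59, 5.74 and 5.2 FPKM (log2 difference -1.37, SE 0.07, limma adjusted p = 6.08e-09). No library of one genotype reached the range of the other in any of the 3 genes, which the naming rule required. The other two falls were IL24 (-0.90) and TSLP (-0.71). CSF1, the growth factor of macrophages, was the member that went the other way, from 3.22, 2.66 and 2.91 FPKM to 4.74, 5.61 and 5.28 FPKM (log2 difference 0.66, SE 0.10, limma adjusted p = 0.00025). The last 3 tested members did not pass.

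**Figure D2:**
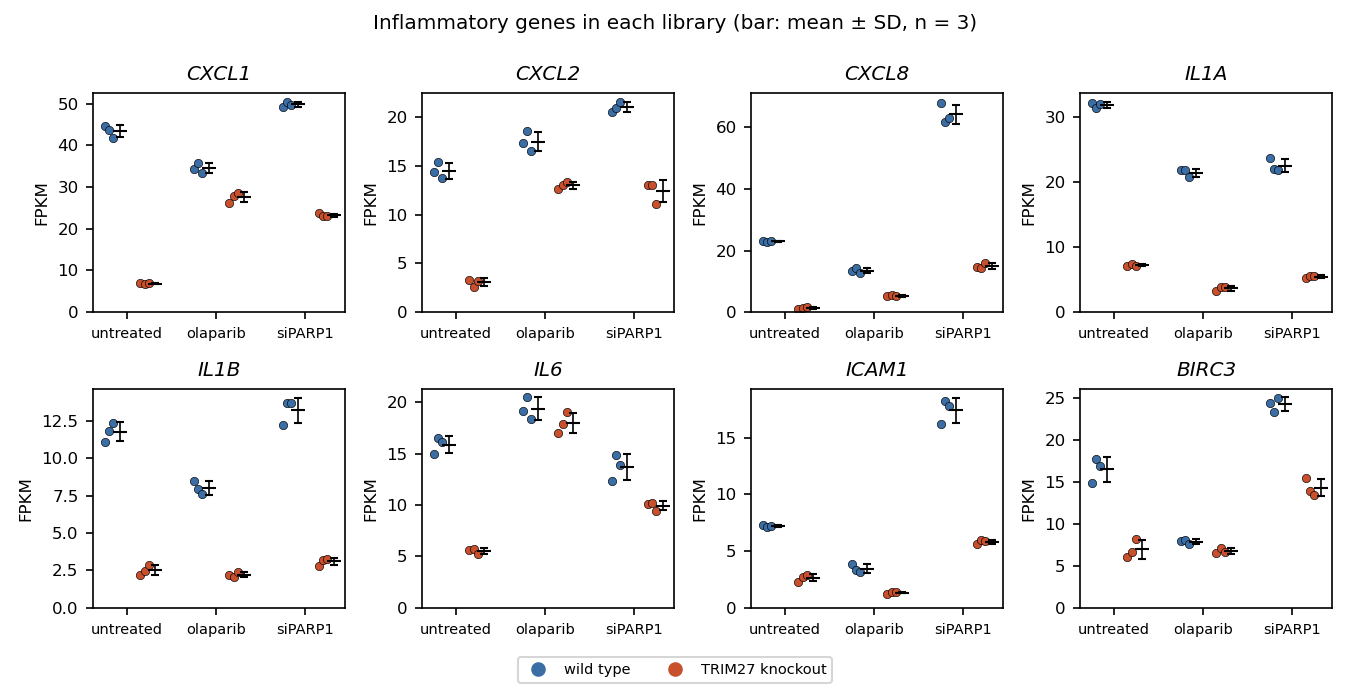
FPKM of 8 inflammatory genes in each of the 18 libraries (blue, wild type; orange, TRIM27 knockout), with the mean and SD of each group of 3 as a black bar beside it; each axis starts at 0. Untreated knockout libraries lie below untreated wild-type libraries in all 8 panels, while for CXCL1, CXCL2 and IL6 the gap is narrower under olaparib.

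In treated cells these genes did not all keep the same gap. Under olaparib 7 of the 15 members were lower in knockout cells (7.44% of all tested genes were), and under siPARP1 10 were lower and 1 higher (11.9% and 12.5% of all). The difference in IL1A was as large in both treatments, with a log2 of -2.28 under olaparib and -1.87 under siPARP1, and IL1B gave -1.48 and -1.79. By contrast, CXCL1 was at 34.5 ± 1.13 FPKM in wild type and 27.5 ± 1.21 in knockout under olaparib, a log2 of -0.32 against -2.50 without treatment (interaction 2.19, SE 0.06, limma adjusted p = 1.47e-11). IL6 measured 19.4 ± 1.1 and 18 ± 1.01 FPKM under olaparib and did not differ past the threshold there (limma adjusted p = 0.392), and the interaction passed (interaction 1.27, SE 0.10, limma adjusted p = 5.05e-06). CXCL8 kept a difference of -1.20 under olaparib and -2.03 under siPARP1, where the wild-type level was 64.2 ± 3.21 FPKM.

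Of 21 tested NF-kB subunits and feedback regulators 6 fell, none rose and 15 did not pass, with a median of -0.15. BIRC3, an inhibitor of apoptosis that NF-kB induces, went from 14.8, 17.7 and 16.9 FPKM to 6.06, 6.65 and 8.16 FPKM (log2 difference -1.14, SE 0.09, limma adjusted p = 3.89e-07), and the subunit RELB from 5.41, 6.42 and 6.3 FPKM to 2.27, 3.48 and 2.67 FPKM (log2 difference -0.90, SE 0.15, limma adjusted p = 0.000586). The atypical inhibitor NFKBIZ fell by 0.54 on the log2 scale, the main inhibitor NFKBIA by 0.45 and the subunit NFKB1 by 0.29. NFKBIA missed the threshold when the listed transcripts were summed (log2 -0.40, adjusted p = 0.0987). The subunits RELA, at 22.5 ± 0.366 FPKM in wild type and 17.9 ± 5.77 in knockout, and NFKB2, at 22.7 ± 2.06 and 21.1 ± 1.11, did not pass. ICAM1, whose promoter is shown above, measured 7.29, 7.09 and 7.21 FPKM in wild type and 2.31, 2.7 and 2.93 FPKM in knockout (log2 difference -1.17, SE 0.07, limma adjusted p = 3.41e-08). Its difference under siPARP1 was -1.43, where wild-type cells held 17.4 ± 1.06 FPKM, and -0.92 under olaparib. Under olaparib BIRC3, RELB, NFKBIZ and NFKBIA all missed the threshold, and for BIRC3 and NFKBIA the interaction with olaparib passed as well.

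Some early response genes fell. Of 12 AP-1 factors 3 fell and 1 rose, and of 19 ERK feedback phosphatases and EGR factors 7 fell and 2 rose, with medians of -0.20 and -0.10. FOS went from 3.82, 3.83 and 4.12 FPKM to 1.36, 1.08 and 1.55 FPKM (log2 difference -1.09, SE 0.08, limma adjusted p = 3.89e-07), while JUN, its partner in the AP-1 dimer, rose from 65, 64.9 and 63.4 FPKM to 98.8, 100.1 and 96.2 FPKM (log2 difference 0.60, SE 0.04, limma adjusted p = 4.73e-08). EGR1 fell from 5.97 ± 0.39 to 3.51 ± 0.128 FPKM, IER3 from 7.2 ± 0.308 to 4.69 ± 0.126, and DUSP6, the phosphatase that switches off ERK, from 16.9 ± 1.5 to 11.7 ± 0.61. DUSP6 lies in a 10 Mb window of chromosome 12 with a median of -0.17, and its difference of -0.49 became -0.32 with window medians removed. The AP-1 letters TGANTCA were in 55 of 1225 lower genes with a promoter (4.49%) and 37 of 1045 higher genes (3.54%), against 342 of 9623 tested (3.55%). Of the 56 genes lower by at least 2-fold 9 held them (16.07%), and none of the 28 higher by at least 2-fold did. SERPINB2, CXCL8, SAMD9L, EMP1, IL1A and FST were among the 9.

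Among metalloproteinases and their inhibitors the largest differences had opposite signs. TIMP3, an inhibitor of metalloproteinases that is itself bound to the matrix, measured 73.3, 72.3 and 72.3 FPKM in wild type and 3.64, 3.24 and 3.74 FPKM in knockout (log2 difference -4.02, SE 0.04, limma adjusted p = 2.85e-17). MMP2, gelatinase A, was at 1.36, 1.69 and 1.3 FPKM and 6.95, 7.25 and 6.87 FPKM (log2 difference 1.71, SE 0.07, limma adjusted p = 3.07e-10), and MMP24, a membrane-anchored member of the family, at 8.12, 8.91 and 8.1 FPKM and 23.8, 23.8 and 22.7 FPKM (log2 difference 1.38, SE 0.05, limma adjusted p = 1.38e-10). The groups did not overlap in any of the 3, which the naming rule required. Both MMP genes were also higher in treated knockout cells, with MMP2 differing by 1.33 under olaparib and 1.31 under siPARP1, and MMP24 by 0.85 and 1.26. TIMP1, at 131 ± 7.91 FPKM in wild type and 125 ± 6.77 in knockout, and TIMP2, at 87.4 ± 5.91 and 64.5 ± 22.3, did not pass. Of 11 tested MMPs and TIMPs 3 rose, 2 fell and 6 did not pass. Among 11 ADAM and ADAMTS proteases, which shed proteins from the cell surface, 5 rose and none fell. The sheddase ADAM10 rose from 19.7 ± 0.391 to 25.2 ± 0.871 FPKM, ADAM19 from 28.5 ± 0.678 to 37.5 ± 2.31 and ADAM9 from 87.9 ± 3.51 to 114 ± 5.0, the last without a call in the transcript sums (log2 0.16, adjusted p = 0.712).

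In the plasminogen system, a cascade that activates matrix proteases at the cell surface, 5 of 15 tested members fell and 2 rose. SERPINB2, an inhibitor of urokinase, was at 11.7, 11.7 and 11.9 FPKM in wild type and 0.239, 0.117 and 0.091 FPKM in knockout (log2 difference -3.48, SE 0.19, limma adjusted p = 1.01e-08). Under siPARP1 it stood at 161 ± 45 FPKM in wild-type cells and at 1.49 ± 0.358 in knockout cells, a difference of -5.99 (interaction -2.52, SE 0.26, limma adjusted p = 4.57e-05). Urokinase itself, PLAU, fell from 159 ± 1.7 to 126 ± 7.82 FPKM and the epidermal serpin SERPINB7 from 35.7 ± 1.4 to 25.3 ± 1.14. F3, tissue factor, which starts coagulation, rose from 80.6 ± 2.78 to 115 ± 1.19 FPKM (log2 difference 0.51, SE 0.03, limma adjusted p = 6.69e-08), and PROCR, the endothelial protein C receptor, which works against clotting, from 73.9, 80.4 and 73.6 FPKM to 156, 164 and 158 FPKM (log2 difference 1.06, SE 0.04, limma adjusted p = 5e-10). PROCR differed by 0.92 and 0.85 in treated cells, whereas F3 did not pass in either treatment and both of its interactions did.

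Genes of the basement membrane, the sheet of collagen IV, laminin, nidogen and perlecan under epithelia and around vessels, rose more often than they fell. Of 11 laminin and basement membrane genes 5 rose and 2 fell, with a median of 0.27, and of 17 collagens 6 rose and 2 fell. COL4A2, a chain of collagen IV, measured 30.3, 30.0 and 27.2 FPKM in wild type and 54.5, 56.8 and 50.6 FPKM in knockout (log2 difference 0.87, SE 0.06, limma adjusted p = 1.84e-07), and its divergently transcribed neighbour COL4A1 12.5, 13.1 and 12.9 FPKM and 21.5, 21.1 and 21 FPKM (log2 difference 0.69, SE 0.04, limma adjusted p = 1.87e-08). HSPG2, perlecan, went from 16.2 ± 0.314 to 27.1 ± 0.76 FPKM, LAMC1, the laminin chain common to most laminins, from 99 ± 3.42 to 139 ± 1.1, and NID1, which links laminin to collagen IV, from 9.8 ± 0.102 to 13.9 ± 0.075. All 5 of these genes were also higher in knockout cells under olaparib and siPARP1. LAMA4 was the exception, at 3.08, 4.0 and 3.95 FPKM in wild type and 0.184, 0.060 and 0.028 FPKM in knockout (log2 difference -2.10, SE 0.14, limma adjusted p = 6.69e-08). In the interstitial matrix COL12A1 and POSTN also fell: COL12A1 fell from 10.4 ± 1.83 to 2.88 ± 0.469 FPKM and POSTN, periostin, from 3.04 ± 0.509 to 1.24 ± 0.392, and they and LAMA4 were lower in both treatments. LAMA4 and POSTN are under the 5 FPKM set for named genes and were picked after their values were seen. Over the whole lists the medians were negative under olaparib. They were -0.02 for laminin and basement membrane genes (3 higher, 2 lower) and -0.17 for collagens (2 higher, 4 lower). Under siPARP1 they were 0.27 (7 higher, 3 lower) and 0.16 (5 higher, 3 lower). Of all tested genes 6.17% were higher and 7.44% lower under olaparib, and 12.5% and 11.9% under siPARP1.

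Secreted matrix proteins and crosslinkers rose in 11 of 26 and fell in 3. Fibronectin, FN1, went from 356, 363 and 369 FPKM to 521, 481 and 521 FPKM (log2 difference 0.48, SE 0.06, limma adjusted p = 2.1e-05), fibrillin 1, FBN1, from 6.45 ± 0.429 to 9.81 ± 0.597 FPKM, the lysyl oxidase LOXL2 from 113 ± 2.03 to 159 ± 5.52, and the fibulin EFEMP1 from 6.3 ± 1.19 to 12.8 ± 2.32 (log2 difference 0.92, SE 0.13, limma adjusted p = 0.000107). The 4 genes were higher in knockout cells in both treatments as well, EFEMP1 by 1.03 and 1.04. Over the whole list of 26, 5 were higher and 3 lower under olaparib (median -0.02), and 10 and 7 under siPARP1 (median 0.20). The shares over all tested genes were 6.17% and 7.44% under olaparib and 12.5% and 11.9% under siPARP1. Of 13 integrins, the receptors for these proteins, 3 passed (23.08%, against 22.2% of all tested genes).

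**Figure D3:**
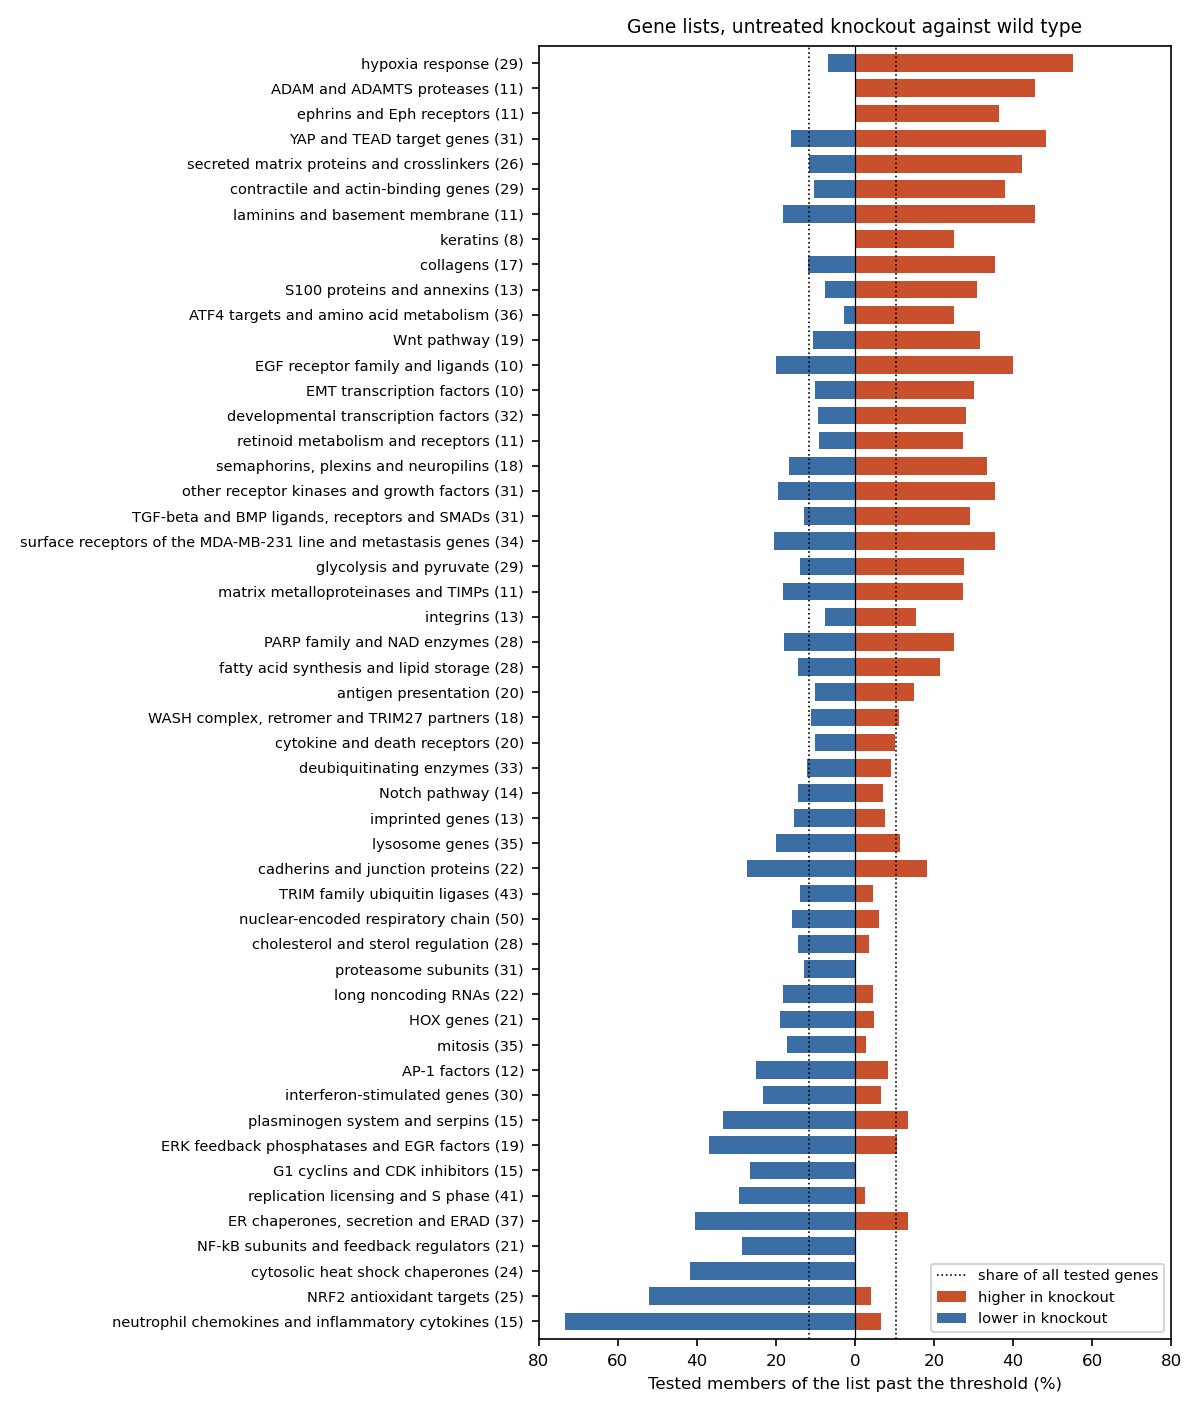
Share of the tested members of the gene lists shown that were higher (orange, to the right) or lower (blue, to the left) in untreated knockout cells at a limma adjusted p under 0.05, with the number tested in brackets; dotted lines mark the shares over all tested genes, 10.5% and 11.7%. Chemokines and cytokines stand at the bottom with 11 of 15 lower, and the hypoxia response stands at the top with 16 of 29 higher.

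Some desmosomal genes fell. Desmosomes join cells through cadherins tied to keratin. DSC3, a desmosomal cadherin, was at 3.44, 3.77 and 3.59 FPKM in wild type and listed at 0 in all 3 knockout libraries. DSP, desmoplakin, fell from 2.15, 2.71 and 2.18 FPKM to 0.22, 0.256 and 0.462 FPKM (log2 difference -1.35, SE 0.11, limma adjusted p = 4.78e-07), and DSG2 from 10.7 ± 0.341 to 7.64 ± 0.108 FPKM (log2 difference -0.43, SE 0.05, limma adjusted p = 3.61e-05). JUP, plakoglobin, which serves both desmosomes and adherens junctions, rose from 7.23 ± 0.227 to 10.7 ± 0.485 FPKM. The 3 falls were present in both treatments, and DSC3 and DSP, both under 5 FPKM, were picked after their values were seen. Of 22 tested junction genes 6 fell and 4 rose, with a median of 0.02. Among transcription factors of epithelial-mesenchymal transition 3 of 10 rose and 1 fell: SNAI2, a repressor of E-cadherin, went from 10.7, 8.7 and 10.4 FPKM to 17.2, 16.5 and 17 FPKM (log2 difference 0.72, SE 0.07, limma adjusted p = 3.02e-06). ZEB2, at 15.6 ± 1.32 FPKM in wild type and 12.5 ± 1.0 in knockout, did not pass.

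Growth factor and receptor genes rose more often than they fell. Of 31 receptor kinases, growth factors and their binding proteins 11 rose and 6 fell. IGFBP4, which sequesters insulin-like growth factors, measured 42, 42.7 and 42.5 FPKM in wild type and 84.5, 88 and 81 FPKM in knockout (log2 difference 0.98, SE 0.05, limma adjusted p = 8.43e-09), a difference of 0.83 under olaparib and 1.17 under siPARP1. IGF2, an imprinted growth factor, went from 1.9, 1.84 and 1.8 FPKM to 5.56, 5.48 and 4.96 FPKM (log2 difference 1.15, SE 0.09, limma adjusted p = 2.61e-07), and PDGFB from 0.772, 0.908 and 0.997 FPKM to 3.24, 2.99 and 3.1 FPKM (log2 difference 1.12, SE 0.06, limma adjusted p = 1.52e-08). FGF5 rose from 23.9 ± 0.693 to 34.4 ± 1.07 FPKM and the lymphangiogenic factor VEGFC from 16 ± 0.725 to 22.2 ± 0.409. These 5 genes were higher in knockout cells in both treatments too. IGFBP2, a binding protein of the same family as IGFBP4, fell from 2.51, 1.99 and 2.09 FPKM to 0.736, 0.526 and 0.057 FPKM (log2 difference -1.18, SE 0.16, limma adjusted p = 8.68e-05).

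In the EGF receptor family ERBB3, the receptor for neuregulins that lacks a strong kinase of its own, measured 10.2, 12.9 and 12.4 FPKM in wild type and 25.2, 27.2 and 28.3 FPKM in knockout (log2 difference 1.12, SE 0.12, limma adjusted p = 1.35e-05). EGFR, at 26.9 ± 1.56 FPKM in wild type and 21.9 ± 1.37 in knockout, and the ligand NRG1, at 55.4 ± 2.37 and 52.4 ± 2.93, did not pass. ERBB3 is more often a luminal gene, and among 5 luminal markers at 1 FPKM or above it rose together with GATA3, from 14.5 ± 0.209 to 22.6 ± 0.928 FPKM and KRT18, from 1058 ± 39.7 to 1229 ± 17.5. The defining luminal markers ESR1, PGR and FOXA1 stayed under 1 FPKM in every untreated library. Other lineage regulators moved as well, with 9 of 32 developmental transcription factors higher and 3 lower. KLF5 rose from 3.23 ± 0.265 to 6.93 ± 0.151 FPKM (log2 difference 0.91, SE 0.20, limma adjusted p = 0.00516) and TFAP2A, an AP-2 factor that activates ERBB2, from 22.9 ± 2.28 to 37.2 ± 0.958, while TBX3, a T-box repressor needed for mammary gland development, fell from 4.87, 3.98 and 4.43 FPKM to 1.49, 1.86 and 1.75 FPKM (log2 difference -1.01, SE 0.07, limma adjusted p = 9.22e-08). In the BMP and TGF-beta pathway 9 of 31 rose and 4 fell. The ligand TGFB2 rose from 14.6 ± 0.452 to 22.5 ± 0.983 FPKM and the BMP antagonist NOG from 4.84 ± 0.572 to 8.46 ± 0.185, whereas the activin antagonist FST fell from 7.82, 8.42 and 7.24 FPKM to 2.97, 4.23 and 2.24 FPKM (log2 difference -1.12, SE 0.15, limma adjusted p = 7.63e-05). ID1 and ID2, both BMP targets, went in opposite directions, at 0.52 and -0.52.

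YAP and TEAD target genes, which respond to stiffness and cell spreading, rose in 15 of 31 and fell in 5, with a median of 0.19. CRIM1, a transmembrane BMP-binding protein, rose from 119, 117 and 119 FPKM to 167, 168 and 174 FPKM (log2 difference 0.51, SE 0.03, limma adjusted p = 7.02e-08), the coactivator WWTR1 (TAZ) from 26.6 ± 1.99 to 39.1 ± 1.57 FPKM and the kinase NUAK2 from 5.89 ± 0.154 to 9.85 ± 0.278. The canonical target CCN2, at 72.4 ± 0.366 FPKM in wild type and 70.3 ± 1.99 in knockout, and YAP1 itself, at 66 ± 7.37 and 71.7 ± 9.47, did not pass. NT5E, the surface enzyme CD73 that makes adenosine, was the member that fell farthest, from 68.3, 66.1 and 68.6 FPKM to 39.2, 37.4 and 34.4 FPKM (log2 difference -0.85, SE 0.05, limma adjusted p = 1.13e-08), and the DNA-binding partner TEAD4 fell by 0.60, or by 0.34 with window medians removed. Contractile genes rose in 11 of 29 and fell in 3: MYH9, the heavy chain of nonmuscle myosin, went from 226, 226 and 226 FPKM to 314, 314 and 319 FPKM (log2 difference 0.48, SE 0.06, limma adjusted p = 3.26e-05), or by 0.31 with the medians of its chromosome 22 window removed. EZR, ezrin, which ties actin to the membrane, rose from 121 ± 4.34 to 178 ± 5.42 FPKM and CDC42EP3 from 96.3 ± 1.03 to 143 ± 0.036, and the kinase PAK1 fell from 2.61, 2.79 and 2.42 FPKM to 0.955, 0.702 and 0.543 FPKM (log2 difference -1.06, SE 0.12, limma adjusted p = 2.37e-05). The caveola coat gene CAVIN1 rose from 314 ± 3.75 to 481 ± 6.16 FPKM. In treated cells the YAP and TEAD targets did not lean to rises. Under olaparib 6 of the 31 were higher and 6 lower (median -0.005), and under siPARP1 7 and 8 (median -0.03). The shares over all tested genes were 6.17% and 7.44% under olaparib and 12.5% and 11.9% under siPARP1.

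Guidance molecules, which steer growing axons and vessels, were next. Of 18 semaphorins, plexins and neuropilins 6 rose and 3 fell, and of 11 ephrins and Eph receptors 4 rose and none fell. PLXNB2, a plexin that binds class IV semaphorins, rose from 42.6, 27.9 and 40.2 FPKM to 62.6, 64.9 and 56.2 FPKM (log2 difference 0.74, SE 0.12, limma adjusted p = 0.000357). SEMA3F and EPHB1, both under 5 FPKM and picked after their values were seen, rose from 0.382 ± 0.075 to 1.59 ± 0.171 and from 1.62 ± 0.148 to 3.41 ± 0.239 FPKM. Among surface genes linked to metastasis, osteopontin, SPP1, rose from 63.4 ± 2.57 to 93.3 ± 3.78 FPKM, without a call in the transcript sums (log2 0.53, adjusted p = 0.33).

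Targets of NRF2, the transcription factor that answers oxidative stress by inducing glutathione synthesis, thioredoxin and iron storage, also fell more often than they rose. Of 25 tested 13 fell, 1 rose and 11 did not pass, with a median of -0.26. ABCC2, an export pump for conjugates, measured 23.6, 23 and 22.8 FPKM in wild type and 9.24, 9.22 and 10.0 FPKM in knockout (log2 difference -1.20, SE 0.05, limma adjusted p = 2.63e-10). FTL, the ferritin light chain, was among the most abundant genes of the list, at 1615, 1679 and 1575 FPKM and 925, 971 and 932 FPKM (log2 difference -0.78, SE 0.04, limma adjusted p = 1.01e-08), and the heavy chain FTH1 fell from 345 ± 38.6 to 243 ± 9.65 FPKM. The groups of libraries did not overlap in any of these genes, and the rule for naming genes asked for this. TXN, thioredoxin, went from 282, 281 and 275 FPKM to 182, 203 and 183 FPKM (log2 difference -0.56, SE 0.06, limma adjusted p = 1.01e-05), SRXN1, sulfiredoxin, from 27.3 ± 0.439 to 17.5 ± 0.456 FPKM, GCLC, the catalytic subunit of glutathione synthesis, from 8.19 ± 0.798 to 4.78 ± 0.263, and ME1, an NADPH source, from 7.45 ± 0.094 to 4.43 ± 0.197.

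NQO1, a quinone reductase and the classical NRF2 target, was low in this wild type, at 1.81, 2.55 and 2.31 FPKM, and was listed at 0.068, 0 and 0 FPKM in knockout. OSGIN1 fell from 3.39, 2.82 and 3.36 FPKM to 1.23, 1.5 and 1.38 FPKM (log2 difference -0.82, SE 0.09, limma adjusted p = 1.79e-05). NQO1 and OSGIN1 are under 5 FPKM and were picked after their values were seen. The member that rose, TKT of the pentose phosphate pathway, lies in the part of chromosome 3 whose genes were higher together, and it missed the threshold with window medians removed (log2 0.27, adjusted p = 0.0582). TXNRD1, thioredoxin reductase, at 407 ± 126 FPKM in wild type and 285 ± 69.1 in knockout, and the haem oxygenase HMOX1, at 22.3 ± 1.17 and 20.1 ± 0.396, did not pass.

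The NRF2 list kept a negative median in both treatments, with 12 members lower under olaparib and 15 lower under siPARP1, and none higher in either. Of all tested genes 7.44% were lower under olaparib and 11.9% under siPARP1. In wild-type cells NQO1 was at 8.13 ± 1.31 FPKM under olaparib and 4.34 ± 0.776 under siPARP1, and in knockout cells at 0.069 ± 0.053 and 0.061 ± 0.019. TXN differed by -0.63 under olaparib and -1.22 under siPARP1, where it stood at 683 ± 21.7 FPKM in wild type and 292 ± 16.6 in knockout (interaction -0.66, SE 0.08, limma adjusted p = 0.000327). ABCC2 differed by -1.61 and -1.75, and both interactions passed.

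**Figure D4:**
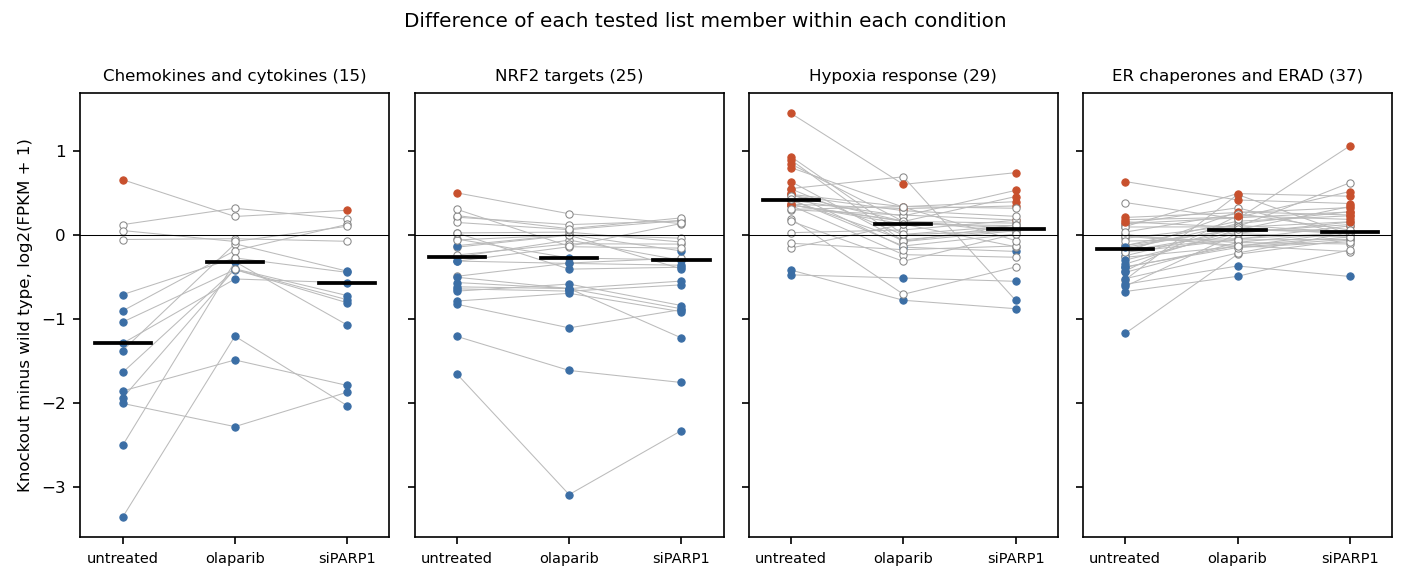
Knockout minus wild type on the log2(FPKM + 1) scale for each tested member of 4 lists, without treatment, under olaparib and under siPARP1; filled points have a limma adjusted p under 0.05, grey lines join a gene and black bars are medians. The NRF2 median stays near -0.3 in all 3 conditions, while the median of the hypoxia list is 0.41 without treatment and near 0.1 in treated cells.

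Genes of the hypoxia response, the programme that HIF factors run when oxygen or its use changes, rose in 16 of 29 tested members and fell in 2. The median was 0.41. ANKRD37 led the list, at 4.92, 5.79 and 4.32 FPKM in wild type and 13.9, 15.8 and 16.3 FPKM in knockout (log2 difference 1.45, SE 0.12, limma adjusted p = 9.51e-07). Its 250 bases before the start (GRCh38.p14 chr4:185396591-185396840, plus strand) hold the core letters of a HIF site, ACGTG, 3 times on either strand, of which 2 overlap in a palindrome, and are shown with these letters in capitals as those of the list's leading gene. These letters are common: 24.02% of tested genes with a promoter hold them, and 13 of 23 list members do.
ANKRD37: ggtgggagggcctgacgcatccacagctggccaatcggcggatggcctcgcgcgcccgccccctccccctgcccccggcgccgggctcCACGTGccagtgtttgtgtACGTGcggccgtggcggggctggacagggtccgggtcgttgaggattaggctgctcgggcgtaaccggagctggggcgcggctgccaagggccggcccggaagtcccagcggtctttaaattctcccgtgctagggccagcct

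DDIT4, an inhibitor of mTORC1 induced by HIF and by stress, measured 53.7, 53.3 and 54.2 FPKM in wild type and 102, 100.0 and 100.0 FPKM in knockout (log2 difference 0.89, SE 0.05, limma adjusted p = 3.75e-08). PFKFB4, which tunes glycolysis, was at 5.52, 5.44 and 5.49 FPKM and 11.6, 11.3 and 11.2 FPKM (log2 difference 0.93, SE 0.09, limma adjusted p = 5.01e-06), and NDRG1, a stress-induced metastasis suppressor, at 5.9, 5.53 and 5.32 FPKM and 11.2, 11.6 and 9.78 FPKM (log2 difference 0.85, SE 0.11, limma adjusted p = 5.09e-05). The libraries of each genotype were close to each other. The groups did not overlap, which was a condition for naming these genes. BNIP3 and BNIP3L, mitophagy receptors, rose by 0.50 and 0.55, and the histone demethylase KDM4B by 0.64. The classical targets VEGFA, at 9.9 ± 1.01 FPKM in wild type and 11.3 ± 1.73 in knockout, and ADM, at 22.6 ± 2.1 and 33.6 ± 1.84, did not pass. TXNIP, which inhibits thioredoxin and glucose uptake and is induced by glucose, rose from 41.6, 42.1 and 40.6 FPKM to 91, 85.9 and 91 FPKM (log2 difference 1.09, SE 0.04, limma adjusted p = 5e-10). Of 29 glycolysis genes 8 rose and 4 fell. PGK1 rose by 0.57 and GYS1, glycogen synthase, by 0.54.

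Under treatment fewer members differed. Of the 29 hypoxia members 3 were higher and 3 lower under olaparib (6.17% and 7.44% of all tested genes), and 6 and 4 under siPARP1 (12.5% and 11.9%). DDIT4 was at 9.19 ± 0.471 FPKM in wild type and 8.68 ± 0.673 in knockout under olaparib, and the interaction passed (interaction -0.97, SE 0.08, limma adjusted p = 7.39e-06). TXNIP was lower in knockout cells there, with a difference of -0.16 under olaparib and -0.14 under siPARP1, at interactions of -1.25 and -1.23. ANKRD37 was still higher, by 0.60 and 0.74. The same pattern held for ACSS2, which makes acetyl-CoA from acetate: it measured 19.3, 21.2 and 20.6 FPKM in wild type and 44.9, 44.2 and 42.7 FPKM in knockout (log2 difference 1.07, SE 0.06, limma adjusted p = 8.94e-09), but 14.9 ± 1.01 and 16.6 ± 0.608 FPKM under olaparib (interaction -0.92, SE 0.08, limma adjusted p = 1.39e-05).

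Stress genes of the amino acid response rose in 9 of 36 and fell in 1. CHAC1, which degrades glutathione, was at 2.73, 6.01 and 5.33 FPKM in wild type and 14.1, 16.3 and 16.1 FPKM in knockout (log2 difference 1.58, SE 0.17, limma adjusted p = 1.28e-05). Its promoter is shown because CHAC1 is the target of ATF4 that rose farthest. The window (GRCh38.p14 chr15:40953221-40953470, plus strand) holds TTGCATCA, the reverse complement of the ATF4 letters TGATGNAA, 209 bases before the start. Those letters were in 123 of 9623 promoters of tested genes (1.28%) and in 3 of the 31 list members. They were in 17 of 1045 higher genes (1.63%) and 21 of 1225 lower genes (1.71%). Among genes that differed by at least 2-fold, 3 of 28 higher and 4 of 56 lower ones held them.
CHAC1: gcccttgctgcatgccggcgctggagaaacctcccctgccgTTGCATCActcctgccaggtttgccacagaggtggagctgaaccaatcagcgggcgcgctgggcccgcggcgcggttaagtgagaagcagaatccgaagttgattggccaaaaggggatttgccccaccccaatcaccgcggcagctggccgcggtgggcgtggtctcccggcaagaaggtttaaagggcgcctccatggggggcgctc

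ATF4 itself rose from 28.6, 32.6 and 29.2 FPKM to 72.8, 41.2 and 43.1 FPKM, an uneven rise (log2 difference 0.73, SE 0.19, limma adjusted p = 0.0116) that was 0.47 without knockout library 1. It missed the threshold in a fit of the 6 libraries alone (adjusted p = 0.078), in the transcript sums (adjusted p = 0.0599) and with window medians removed (adjusted p = 0.0562). PCK2, the mitochondrial PEP carboxykinase, rose from 9.86 ± 0.821 to 16 ± 1.62 FPKM. Asparagine synthetase, ASNS, at 91.7 ± 7.15 FPKM in wild type and 109.5 ± 22.1 in knockout, did not pass.

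Chaperone genes of the endoplasmic reticulum (ER) and of the cytosol fell more often than they rose. Of 37 ER chaperone, secretion and ERAD genes 15 fell and 5 rose (median -0.17). DNAJB9, a cochaperone induced by IRE1, measured 15.9, 16 and 14.9 FPKM in wild type and 5.7, 7.08 and 6.43 FPKM in knockout (log2 difference -1.17, SE 0.08, limma adjusted p = 1.15e-07). SEC23B, of the COPII coat, fell from 16.5 ± 0.771 to 10.7 ± 0.094 FPKM, DNAJC3 from 15.8 ± 0.496 to 11.4 ± 0.357 and SELENOS, of ERAD, from 21 ± 0.502 to 15.4 ± 0.867. The mannosidase-like EDEM2 rose from 27.7 ± 0.925 to 43.7 ± 2.49. In treated cells the list had the other sign, with 7 higher and 2 lower under olaparib and 13 higher and 1 lower under siPARP1. The shares over all tested genes were 6.17% and 7.44% under olaparib and 12.5% and 11.9% under siPARP1. DNAJB9 did not pass in either, and SELENOS was higher by 0.23 and 0.19, with interactions of 0.66 and 0.61.

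Of 24 cytosolic heat shock chaperones 10 fell and none rose (median -0.15). HSPA8, the constitutive HSP70, was at 687, 618 and 823 FPKM in wild type and 297, 318 and 314 FPKM in knockout (log2 difference -1.18, SE 0.14, limma adjusted p = 2.93e-05), though in the transcript table a single isoform, HSPA8-212, was listed at 354 FPKM in wild-type library 3 and at 0 in the other 5. The inducible copies HSPA1A and HSPA1B, which share reads, were at 2.75 ± 0.149 and 3.06 ± 0.080 FPKM in wild type and 0.912 ± 0.048 and 1.05 ± 0.113 in knockout. DNAJA1, a cochaperone of HSP70, fell from 65.4, 64.6 and 64.3 FPKM to 46.6, 47.1 and 46.3 FPKM (log2 difference -0.46, SE 0.03, limma adjusted p = 8.83e-08). None of the 4 was lower by more than 0.12 under olaparib, and all 4 interactions with olaparib passed.

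Cell cycle lists held more falls than rises, though most members did not pass. In the S phase list 12 of 41 fell and 1 rose (median -0.15), and in mitosis 6 of 35 fell and 1 rose (median 0.01). Of 15 G1 cyclins and CDK inhibitors 4 fell and none rose. The shares called were 31.71%, 20% and 26.67%, against 22.2% of all tested genes. FEN1, the flap endonuclease, fell from 45.8 ± 1.64 to 33.2 ± 0.815 FPKM, TYMS, thymidylate synthase, from 51.6 ± 1.46 to 39 ± 0.479, cyclin E1, CCNE1, from 10.2 ± 1.03 to 7.27 ± 0.335, CDK4 from 94 ± 15.8 to 60.3 ± 6.18 and cyclin D1, CCND1, from 139 ± 2.3 to 121 ± 2.37. Sterol genes changed little, with 4 of 28 lower and 1 higher (17.86% called). INSIG1, which holds SREBP in the ER, fell from 49.3, 51.4 and 82.2 FPKM to 30.8, 27.3 and 26.2 FPKM (log2 difference -1.06, SE 0.15, limma adjusted p = 0.00014). SREBF2, which encodes such a factor, rose from 23.2 ± 0.688 to 30.3 ± 0.479 FPKM. GLUL, glutamine synthetase, fell from 6.2, 6.43 and 6.82 FPKM to 1.63, 1.56 and 1.03 FPKM (log2 difference -1.64, SE 0.15, limma adjusted p = 1.94e-06), and UPP1, uridine phosphorylase, from 17.3, 14.8 and 16.8 FPKM to 5.8, 6.36 and 5.76 FPKM (log2 difference -1.31, SE 0.09, limma adjusted p = 1.46e-07). YWHAB fell by 1.38, but without wild-type library 2 (-1.12) or any of the knockout libraries (-1.39 to -1.36) it missed the threshold. KAZN-AS1, an antisense RNA, fell by 1.45 in the gene table, and the transcript table gave no difference (0.0007).

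Of 30 interferon-stimulated genes 7 fell and 2 rose (median -0.07). SAMD9, a restriction factor, went from 24.6, 24.3 and 23.7 FPKM to 16.1, 11 and 15.7 FPKM (log2 difference -0.74, SE 0.10, limma adjusted p = 9.07e-05). Its paralogue SAMD9L and the guanylate-binding protein GBP1, both under 5 FPKM and picked after their values were seen, were at 4.19 ± 0.556 and 2.54 ± 0.482 FPKM in wild type and 0.188 ± 0.076 and 0.096 ± 0.044 in knockout. TRIM22, an interferon-induced relative of TRIM27, fell from 3.77, 4.08 and 4.54 FPKM to 1.6, 1.85 and 1.84 FPKM (log2 difference -0.89, SE 0.06, limma adjusted p = 1.36e-07). IFIT1 went the other way, from 5.79, 6.39 and 6.02 FPKM to 10.4, 10.3 and 9.75 FPKM (log2 difference 0.66, SE 0.05, limma adjusted p = 4.3e-07), stayed higher under olaparib (0.98) and was lower under siPARP1 (-1.18, interaction -1.84, SE 0.07, limma adjusted p = 5.02e-09). Under siPARP1 19 of the 30 were lower and none higher, against 11.9% and 12.5% of all tested genes.

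Ubiquitin and partner lists closer to TRIM27's own biochemistry lay near the background. Of 43 other and own TRIM genes 6 were lower, TRIM27 included, and 2 higher. Of 33 deubiquitinases 4 fell and 3 rose, of 18 WASH, retromer and partner genes 2 fell and 2 rose, and of 31 proteasome subunits 4 fell and none rose, against 11.7% lower and 10.5% higher over all tested genes. The PARP and NAD list lay above these shares: of 28 genes 7 rose and 5 fell (42.86% called, against 22.2% of all tested genes). Mitochondrial transcripts shifted unevenly: the ribosomal RNA MT-RNR2 rose from 5527, 5160.3 and 5560.1 FPKM to 8077, 7561 and 7988 FPKM (log2 difference 0.54, SE 0.06, limma adjusted p = 1.51e-05), and the messenger MT-CO3 fell from 13060.0, 11725 and 13099 FPKM to 9941, 9310.3 and 9869 FPKM (log2 difference -0.38, SE 0.06, limma adjusted p = 0.000461). These values are shares of a library, and the same 2 genes did not differ past the threshold under siPARP1. Under olaparib MT-CO3 was still lower (log2 difference -0.22, limma adjusted p = 0.0257), and MT-RNR2 did not pass (limma adjusted p = 0.563).

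Some of the differences ran along chromosomes. In 10 Mb windows with at least 10 tested genes, windows with a median beyond 0.15 in either direction, single or in runs, held 2163 genes, 15.08% of those tested. Of these 36.11% were called, against 19.7% elsewhere. The first 60 Mb of chromosome 3 held 329 tested genes, of which 154 were higher and 4 lower, with a median of 0.28. The first 80 Mb of chromosome 7 held 308, of which 130 were lower and 4 higher (median -0.26), and the first 30 Mb of chromosome 12 held 146, of which 69 were lower and 2 higher (median -0.26). In chromosome 2 from 90 to 110 Mb 36 of 79 were lower and none higher, and of the 192 genes from 120 to 140 Mb of chromosome 9, 64 were lower and 6 higher. The first 20 Mb of chromosome 19 held the most genes, 388, of which 85 were higher and 5 lower (median 0.17). These windows were picked by the untreated values, so their counts are descriptions. In the treated libraries the same windows had medians of 0.30 and 0.37 on chromosome 3, -0.22 and -0.15 on chromosome 7, and -0.26 and -0.29 on chromosome 12, under olaparib and siPARP1. With all window medians removed 1211 genes were higher and 1137 lower. The labels do not say whether the knockout derives from a single cell, and copy number was not measured, so genotype and copy number cannot be told apart for these windows.

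**Figure D5:**
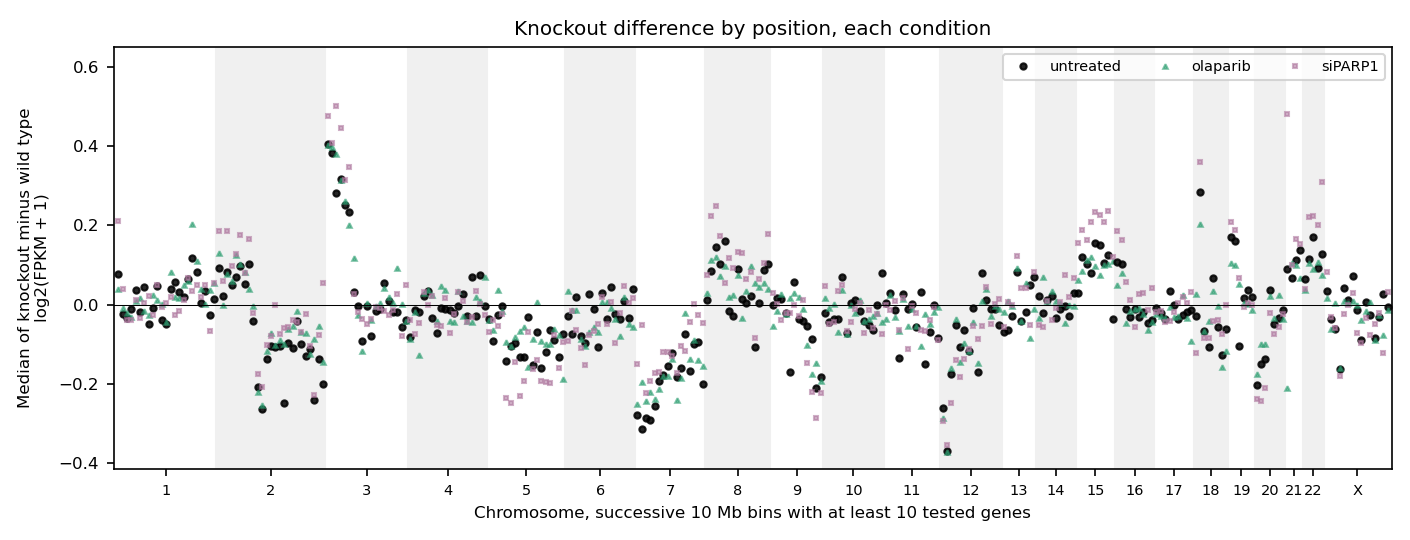
Median of knockout minus wild type on the log2(FPKM + 1) scale in successive 10 Mb windows with at least 10 tested genes, chromosome by chromosome; circles are untreated cells, triangles olaparib and squares siPARP1. The start of chromosome 3 lies above 0 and the starts of chromosomes 7 and 12 lie below 0 in all 3 conditions.

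The treated libraries, which entered the untreated calls only through the estimate of spread, have wild-type libraries of their own. Of the 1501 genes higher without treatment, 554 (36.91%) were also called higher under olaparib and 788 (52.5%) under siPARP1. For the 1679 lower genes the counts were 640 (38.12%) and 831 (49.49%). Over all tested genes 6.17% were higher and 7.44% lower under olaparib, and 12.5% and 11.9% under siPARP1. In both treatments 443 of the higher and 490 of the lower genes were called the same way, among them 28 of the 51 and 68 of the 98 that differed by at least 2-fold. The opposite call was made for 27 higher and 22 lower genes under olaparib and 40 and 47 under siPARP1. A tested interaction marked 487 genes (3.4%) whose knockout difference depended on olaparib, 231 positive (1.61%) and 256 negative (1.79%), and 813 (5.67%) for siPARP1, 429 positive (2.99%) and 384 negative (2.68%). Next to TIMP3, CXCL1 and CXCL8, the largest for olaparib included FOSL2, an AP-1 factor at 34.9 ± 2.04 FPKM in wild type and 57.4 ± 1.09 in knockout without treatment (limma adjusted p = 0.176). Under olaparib the wild-type level was 37.3 ± 0.552 FPKM, and the knockout libraries were at 9.46, 38.1 and 8.91 FPKM, so the second lay at the wild-type level. COX7A2L also ranked there, but it was at 59.9, 60.9 and 17.5 FPKM in wild-type libraries, so 1 library of 3 stood apart.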

How the data were processed

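Polyadenylated RNA of 18 MDA-MB-231 libraries was sequenced, 3 in each of 6 groups. The deposited values are FPKM per gene and per transcript, made by the authors. Per the submitters' processing notes the genome was GRCh38 and the tools were HISAT2 2.2.1, fastp 0.23.2, StringTie 2.2.1, featureCounts 2.0.3 and DESeq2 1.38.3. Which of them made the FPKM, the annotation and the strand setting are not given in the sources used here, so overlapping and antisense genes cannot be separated. Read counts were not used here, and absolute depth is unknown. The steps between low values put relative depth at 0.76 to 1.04 of wild-type library 1.

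Gene identifiers were matched to symbols for 61757 of 61860 Ensembl genes and to GENCODE positions for 58308. Genes with at least 1 FPKM in 3 of the 6 untreated libraries were tested with limma 3.58.1 (R 4.3.3) on log2(FPKM + 1). One fit took all 18 libraries in 6 groups, with 12 residual degrees of freedom, an intensity trend and Benjamini-Hochberg adjustment over 14341 genes at 0.05, and it was tested on simulated data. Fold changes on this scale understate those of low genes. Of the tested genes 94 passed the filter only through knockout libraries and 101 only through wild-type libraries, and 963 were unnamed loci. The labels do not tie the libraries of a group to separate cultures. The p-values then measure no more than the spread among these libraries, which may be technical. All 18 carry 1 batch label. Motifs were searched on both strands of the 250 bases before each start in the RefSeq promoter table (GRCh38.p14).

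Genes were named by rule: TRIM27, PARP1 and PAX6, the 20 largest rises and falls among genes with a symbol, at least 5 FPKM in the higher group, a call and no overlap between groups, the 4 largest such changes in each list, the 5 most abundant calls in each direction, and the 6 largest interactions for each treatment. Genes under 5 FPKM were named after their values were seen. Not every gene or list the rule allows is reported here. The members, lists and tests were chosen with earlier results of these data known. Alternatives were the pseudocount, the filters, the scaling, the transcript sums, the removal of window medians, a constant prior variance, a replicate block and leaving out each library.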

Additional observations from a re-analysis of the deposited data

Results flagged for a closer look

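The knockout difference depended on treatment, by a test of the interaction in limma at an adjusted p under 0.05, in 487 genes for olaparib and 813 for siPARP1. Of the genes named with values, 67 did so for olaparib and 70 for siPARP1. An interaction is the log2 difference under treatment minus that without it, so a positive value in a gene that is lower in untreated knockout cells means a smaller gap. A gene given for 1 treatment missed the threshold in the other, and the difference between treatments was not tested. No group had the 4 libraries needed to test for an outlying one. Chemokine, cytokine and NF-kB genes passed under olaparib and siPARP1, in that order, at 2.19 and 1.43 for CXCL1, 1.54 and 1.22 for CXCL2, 0.77 and 0.72 for CXCL3, 2.15 and 1.33 for CXCL8, 1.23 and 0.86 for CCL2, and 1.27 and 0.94 for IL6. Further pairs were 0.72 and 1.03 for IL24, and 0.40 and 0.45 for IER3. Passing for olaparib were also 0.61 for NFKBIA and 0.95 for BIRC3. Values for olaparib and then siPARP1 in early response genes were -0.53 and -0.46 for JUN. The olaparib interaction was further -1.97 for FOSL2. The siPARP1 interaction was further 1.24 for FOS, 0.39 for EGR1, -0.42 for DUSP6 and -0.42 for NUAK2.

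Matrix, protease and coagulation genes passed under olaparib and siPARP1, in that order, at 2.19 and 0.98 for TIMP3, -0.38 and -0.40 for MMP2, -0.31 and -0.34 for COL4A1, and -0.52 and -0.60 for F3. Olaparib also gave -0.53 for MMP24 and -0.51 for HSPG2. siPARP1 also gave 0.33 for ADAM19, -2.52 for SERPINB2, -0.60 for SERPINB7, -0.48 for COL4A2, -0.23 for LAMC1, -0.72 for LAMA4 and -1.10 for POSTN. Values for olaparib and then siPARP1 in junction, surface and cytoskeletal genes were -0.37 and 0.37 for DSC3, 0.59 and 0.55 for NT5E, 0.54 and -0.39 for MCAM, -0.28 and -0.56 for CAVIN1, and -0.25 and -0.24 for CDC42EP3. Passing for olaparib were also -0.46 for JUP, -0.37 for MYH9, -0.75 for SEMA3F, -0.64 for PLXNB2 and -0.52 for GFRA1. Passing for siPARP1 were also -0.34 for KRT18.

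Growth factor and regulator genes passed under olaparib and siPARP1, in that order, at -0.34 and -0.33 for TGFB2, -0.47 and -0.94 for ID1, 0.55 and 0.51 for ID2, -0.84 and -0.93 for ELF3, -1.54 and -1.43 for PADI2, and -0.54 and -1.0 for MGARP. The olaparib interaction was further 0.89 for FST and -0.32 for CRIM1. The siPARP1 interaction was further -0.66 for ERBB3, -0.82 for PDGFB, 0.41 for FGF5, 0.62 for TBX3, -1.21 for UCHL1 and -0.87 for SNRPN. Values for olaparib and then siPARP1 in redox genes were -1.44 and -0.67 for NQO1, and -0.41 and -0.55 for ABCC2. siPARP1 also gave -0.66 for TXN and -0.26 for SRXN1.

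Hypoxia and metabolic genes passed under olaparib and siPARP1, in that order, at -0.84 and -0.70 for ANKRD37, -0.97 and -0.84 for DDIT4, -0.92 and -0.82 for PFKFB4, -0.64 and -0.69 for BNIP3, -0.55 and -0.49 for BNIP3L, and -0.53 and -0.63 for PGK1. Further pairs were -0.61 and -0.50 for GYS1, -1.25 and -1.23 for TXNIP, and -0.92 and -0.96 for ACSS2. Passing for olaparib were also -0.68 for NDRG1, -0.71 for KDM4B, -0.35 for SREBF2 and 2.69 for COX7A2L. Passing for siPARP1 were also -1.33 for ADM. Values for olaparib and then siPARP1 in chaperone and amino acid stress genes were -1.41 and -1.20 for CHAC1, 0.94 and 1.11 for DNAJB9, 0.66 and 0.61 for SELENOS, 0.36 and 0.48 for DNAJC3, 1.21 and 1.52 for HSPA8, and 0.96 and 1.28 for HSPA1A. Further pairs were 0.88 and 1.17 for HSPA1B, and 0.35 and 0.37 for DNAJA1.

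Cell cycle, interferon and mitochondrial genes passed under olaparib and siPARP1, in that order, at 0.34 and 0.31 for FEN1, 0.33 and -0.21 for TYMS, 0.27 and 0.19 for CCND1, 0.33 and -1.84 for IFIT1, and -0.48 and -0.59 for MT-RNR2. Olaparib also gave 0.44 for CCNE1, 0.74 for SAMD9L and 0.85 for GBP1. siPARP1 also gave 0.38 for MT-CO3.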

How the results depend on the processing

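Calls were recomputed under 17 alternatives, and 142 of the 151 genes named with values that passed kept their direction and call in every alternative run for them, which leaves out the 5 FPKM minimum for 30 of the 151. A pseudocount of 0.1 gave 118 genes higher and 150 lower by at least 2-fold, rescaling to TPM 96 higher, a 5 FPKM minimum 62 lower by at least 2-fold, and a fit of the 6 libraries alone 1117 lower genes; for the scaling the cause was not tested. With 1 untreated library left out in turn, 1144 to 1298 genes were higher and 1294 to 1408 lower, 49 to 57 and 92 to 102 by at least 2-fold, and 345 to 399 and 574 to 670 had an olaparib or siPARP1 interaction. Across genes, deviations of same-numbered wild-type and knockout libraries correlated at 0.033, -0.02 and -0.002. Such a correlation cannot exclude an effect that same-numbered libraries share in some genes. MT-CO3 was lowest in library 2 of both genotypes without treatment and under olaparib, and in library 1 of both under siPARP1. With the replicate block 1473 genes were higher and 1623 lower, 2960 of these 3096 called the same way without it. PARP1 turned positive on rescaling to TPM (0.0004) and without wild-type library 1 (0.011) or knockout library 2 (0.022), ran from -0.073 to 0.022 with 1 library left out, and never passed. KAZN-AS1 (0.0007) and ENSG00000266865 (-0.15) changed sign in the transcript sums, and neither then passed; the cause was not tested. Over the alternatives the median stayed between -1.89 and -1.09 for chemokines and cytokines, -0.31 and -0.24 for NRF2 targets and 0.39 and 0.49 for the hypoxia response. Genes under about 5 FPKM are the least sure: read counts were not used here, relative depth spanned 0.76 to 1.04 of wild-type library 1, and 3 libraries a group, from cultures not stated to be separate, limit what small differences can show.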

Other observations

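Other gene lists gave the following counts. Wnt pathway genes rose in 6 of 19 tested members and fell in 2. Of 13 S100 proteins and annexins 4 rose and 1 fell, and of 10 EGF receptor family genes and ligands 4 rose and 2 fell. Among 34 surface receptors and metastasis genes of the line 12 rose and 7 fell. The shares over all tested genes were 10.5% higher and 11.7% lower.

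Falls were the more frequent call among lysosome genes, at 7 of 35 with 4 higher, nuclear-encoded subunits of the respiratory chain, at 8 of 50 with 3 higher, and long noncoding RNAs, at 4 of 22 with 1 higher. HOX genes fell in 4 of 21 and rose in 1, with a median of -0.21, or 0.02 with window medians removed. CD68, a lysosomal protein and the leukocyte marker that reached the filter, was lower by a log2 of -0.28.

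The remaining lists gave these counts. Of 28 fatty acid and lipid storage genes 6 rose and 4 fell, and of 20 antigen presentation genes 3 rose and 2 fell. Receptors for cytokines and death ligands held 2 rises and 2 falls among 20, retinoid genes 3 and 1 among 11, the Notch pathway 1 and 2 among 14, imprinted genes 1 and 2 among 13, keratins 2 and 0 among 8, cancer-testis antigens 1 and 0 among 6, and neural markers 1 and 1 among 5.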
